A study of Mus musculus with 4 samples.

Results

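The genes described are 7 genes of MHC class II antigen presentation: Cd74, H2-Aa, H2-Ab1, H2-Eb1, H2-DMa, H2-DMb1 and Ciita. They were taken by symbol from the 32285 genes of the count files, and all 7 were found. In GRCm38 with GENCODE annotation all are protein-coding: H2-DMa (chr17:34119541-34139101), H2-DMb1 (chr17:34153072-34160230), H2-Ab1 (chr17:34257689-34269419), H2-Aa (chr17:34282744-34287823) and H2-Eb1 (chr17:34305867-34316674) are neighbours, Ciita is at chr16:10480059-10528418 and Cd74 on chromosome 18. The study put CD45.2+Kit+ bone marrow cells of 4 groups, 10 weeks after transplantation, through droplet single-cell RNA sequencing with barcoded antibodies, to ask what the histone methyltransferases MLL3 and MLL4 do in blood formation. The labels call the groups Mll3SI, Mll4SI, Mll3/4SI and control, and there is 1 library for each. The labels do not spell out SI (they name the libraries wt, mll3KI, mll4KI and dKI), and they give no animal number, sex, recipient or pooling. Kit marks stem and progenitor cells and mast cells, and all 4 groups share that sort.

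MHC class II molecules show peptides from taken-up protein to CD4 T cells. H2-Aa with H2-Ab1, and an H2-E alpha chain with H2-Eb1, form the peptide-holding pairs; Cd74, the invariant chain, escorts them and blocks the groove until H2-DMa and H2-DMb1, the 2 chains of the peptide exchanger, load a peptide. Ciita is the co-activator that switches these genes on, without binding DNA itself, through factors seated on a conserved promoter module. Dendritic cells, macrophages and B cells are the classical carriers, and interferon gamma can bring class II on in other cells.

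Of the genes, 4 had a promoter in RefSeq's table for GRCm38.p6: H2-Aa, H2-Eb1, H2-DMa and H2-DMb1. The 150 bases before the start of H2-Aa (chr17:34287824-34287973, minus strand) and of H2-Eb1 (chr17:34305717-34305866, plus strand) are shown because the levels of both genes had the same order over libraries in stem-like cells. Capitals mark 2 short motifs searched on both strands, the Y-box core TGATTGG and GNAACT from the X box (N is any base; in capitals on the other strand it reads as its complement).
H2-Aa: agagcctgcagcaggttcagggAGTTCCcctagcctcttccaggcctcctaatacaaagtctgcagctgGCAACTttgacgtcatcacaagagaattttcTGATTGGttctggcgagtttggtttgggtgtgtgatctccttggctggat
H2-Eb1: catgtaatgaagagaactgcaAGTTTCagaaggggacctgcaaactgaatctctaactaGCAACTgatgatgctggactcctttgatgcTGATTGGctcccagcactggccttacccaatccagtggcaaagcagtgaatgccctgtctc

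From the first base of GNAACT to the first base of TGATTGG there were 31 bases in H2-Aa, 30 in H2-Eb1 and 31 in H2-DMb1. Neither motif occurred in this window at either start of H2-DMa in that table. Both windows (chr17:34122682-34122831 and chr17:34125368-34125517) lie inside the GENCODE gene given above, and the bases before its GENCODE start were not searched. TGATTGG was found in 5.71% and GNAACT in 23.6% of the 32851 windows of this length in the table, and 31 windows, or 0.0944%, held both in this order at 20 to 35 bases. The motifs and the spacing were chosen with these sequences in view, and a match is a description of letters only.

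Counts of unique molecular identifiers (UMIs, 1 per captured transcript) totalled 123467962 to 146807326 per library, over 6743 control, 8023 Mll3SI, 10186 Mll4SI and 6755 Mll3/4SI cells. Levels are counts per 1000000 (CPM) of the UMIs summed over the cells of a class and library, with an exact 95% Poisson interval. A ratio to control carries an exact conditional binomial interval. Both cover counting error only: with 1 library a group no test between groups is possible, and animal, library and group cannot be told apart. A gene is called higher or lower where the log2 ratio of CPM + 1 reaches 1 or -1. The control and Mll3SI libraries expressed Y-linked genes (summed 171 to 184 CPM) and the other 2 Xist (1162 to 1463 CPM), so that sex-linked RNA and genotype cannot be told apart between these pairs. From 11 to 21 cell barcodes were shared by a pair of libraries. Each library held cells with 2 hashtag antibodies; the labels do not say what they marked, and values are given for each.

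Most UMIs of Cd74, H2-Aa, H2-Eb1 and Ciita lay in very few cells. Cluster 29 held 38 control, 26 Mll3SI, 18 Mll4SI and 15 Mll3/4SI cells, 0.177% to 0.564% of a library. It nevertheless carried 91.3%, 93.9%, 82.2% and 80.7% of all Cd74 UMIs in that order. The shares for H2-Aa were 89.1%, 86.7%, 81.3% and 74.2%, for H2-Eb1 88.9%, 91.1%, 75.6% and 72.2%, and for Ciita 82.0%, 65.0%, 52.2% and 52.8%. For the peptide exchanger the picture was the opposite, with 1.57% to 4.49% of H2-DMa and 3.68% to 10.7% of H2-DMb1 UMIs in this cluster. H2-Ab1 stood between, at 60.8%, 46.0%, 20.9% and 43.8%. In cluster 29, 8 of 15 dendritic, 7 of 10 macrophage and 6 of 12 monocyte markers were higher than in all other cells, so it was given no cell type name. Among the dendritic ones were Xcr1 and Clec9a, of cross-presenting dendritic cells, and Cd209a. These marker counts are over the pooled cells of the cluster. At least 10 dendritic-marker UMIs were seen in 31 control, 19 Mll3SI, 12 Mll4SI and 11 Mll3/4SI cells. At least 10 macrophage-marker UMIs were seen in only 1, 1, 1 and 4 cells.

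**Figure D1:**
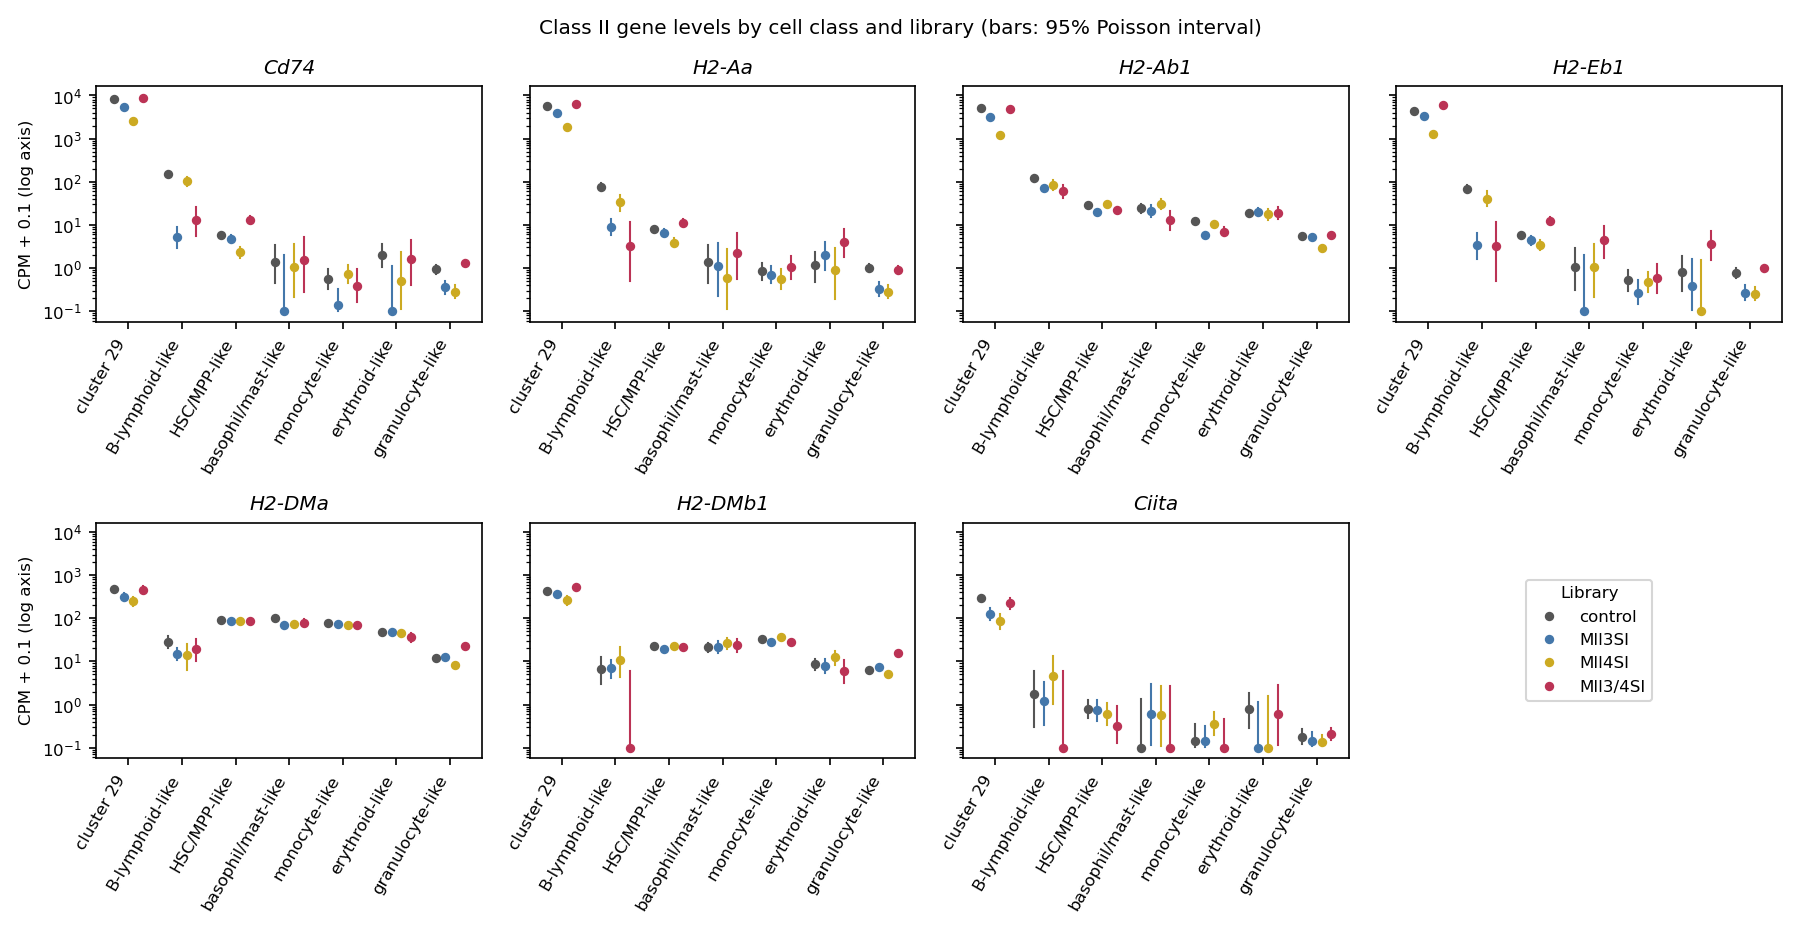
Level of each gene (CPM + 0.1, log axis) in 7 cell classes or clusters, 1 point per library with its 95% Poisson interval. Cd74, H2-Aa, H2-Eb1 and Ciita are far above all other classes in cluster 29, whereas H2-DMa and H2-DMb1 are spread over the progenitor classes.

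Within cluster 29 the Mll4SI library was the lowest for all 7 genes. Cd74 stood at 8201 CPM in control, 5474 in Mll3SI and 2522 in Mll4SI, and 8938 in Mll3/4SI. H2-Ab1, the beta chain of the I-A pair, stood at 5025, 3197, 1182 and 4896 CPM. The Mll3/4SI library was thus close to control and Mll4SI the farthest below it. For Ciita the levels were 293, 126, 85.7 and 222 CPM. Of the 7 genes, 5 were called lower in Mll4SI (H2-Ab1 by the most, at a CPM ratio of 0.235, interval 0.209 to 0.264), 1 in Mll3SI (Ciita, ratio 0.430, interval 0.294 to 0.615) and none in Mll3/4SI. Among all 12059 genes tested, 15.1%, 13.5% and 17.6% were called lower in Mll4SI, Mll3SI and Mll3/4SI, and 14.9%, 15.5% and 13.4% higher in Mll3/4SI, Mll4SI and Mll3SI, so calls were common in this small cluster.

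The cells themselves were uneven. Summed over the 7 genes, the median cell had 24819 CPM in control, 22528 in Mll3SI and 2912 in Mll4SI, and 28832 in Mll3/4SI. The highest cells reached 49120, 52580, 33308 and 65648 CPM. The top cells of Mll4SI thus carried class II RNA within the range of the other libraries, while many of its cells held little. Monocyte-marker UMIs were also highest there, at a median of 29.5 a cell against 19.5 in control, 12.5 in Mll3SI and 11 in Mll3/4SI. Dendritic-marker UMIs had medians of 32 in control, 16.5 in Mll3SI and 16 in Mll4SI, and 39 in Mll3/4SI, and cells with at least 10 macrophage-marker UMIs numbered 1, 1, 1 and 4. Median depth was lowest for Mll3SI cells of this cluster, at 8540 UMIs, against 12102.5 for control, 14718 for Mll3/4SI and 15111.5 for Mll4SI. Marker UMIs were not scaled to this depth, so their medians do not order the libraries by marker level. The part of these markers in the class II levels was not tested.

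**Figure D2:**
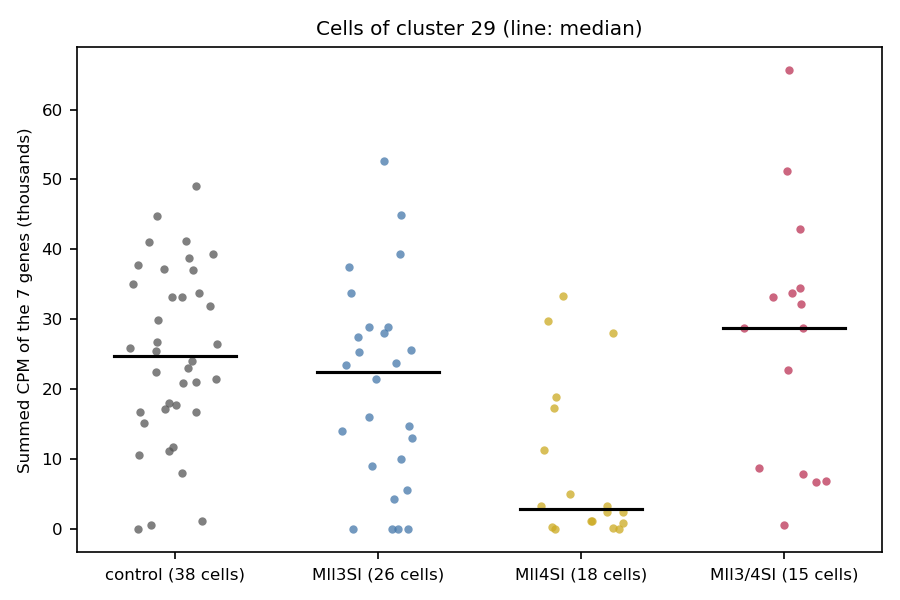
Summed CPM of the 7 genes (in units of 1000 CPM, vertical axis) in each cell of cluster 29, by library, with the median as a line. The Mll4SI median of 2912 CPM lies far below the 22528 to 28832 CPM of the other libraries, with a few Mll4SI cells as high as theirs.

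Summed over all kept cells, 6 of the 7 genes were lower than control in each other library; H2-DMb1, at 16.1 CPM in control, was at 14.2 and 13.5 CPM in Mll3SI and Mll4SI but at 18.1 CPM in Mll3/4SI. Cd74 was at 36.2 CPM in control and at 14.6, 5.85 and 16.5 CPM in Mll3SI, Mll4SI and Mll3/4SI. H2-Eb1 stood at 20.2, 9.09, 3.27 and 12.4 CPM. Called lower were 3 members in Mll3SI and 4 in Mll4SI, and 1 (Cd74) in Mll3/4SI, against 0.325%, 1.28% and 0.959% of the 12300 genes tested; none was called higher, against 0.26%, 1.11% and 1.62%. Such sums follow both the number of cells and the level in them: cluster 29 was 0.564% of control cells and 0.222% of Mll3/4SI cells, at the similar Cd74 levels given above, and without it the Mll3/4SI log2 ratio of Cd74 was 0.012. The median log2 ratio over the 7 was -0.90, -1.54 and -0.67, beside -0.02, -0.13 and -0.05 over all genes. Without cluster 29 the medians were -0.44, -0.56 and 0.039. The sums also differed by hashtag: control cells with Hashtag1 had 17.7 CPM of Cd74 and those with Hashtag2 53.4, with 11 and 26 cells of cluster 29, and Hashtag1 cells had 20.02 CPM in Mll3SI and 20.05 in Mll3/4SI, above the Hashtag1 cells of control.

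In stem and multipotent progenitor-like (HSC/MPP-like) cells (923 control, 920 Mll3SI, 779 Mll4SI and 342 Mll3/4SI cells) the classical genes were low but present, and differed between libraries in opposite directions. Cd74 stood at 5.70 CPM in control, 4.61 in Mll3SI and 2.21 in Mll4SI, and 13.2 in Mll3/4SI. H2-Eb1 followed the same order, at 5.61, 4.26, 3.29 and 12.5 CPM. H2-Aa did too, at 7.79, 6.50, 3.8 and 11.2 CPM. Mll3/4SI was the highest and Mll4SI the lowest for each of the 3.

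Cd74 and H2-Eb1 were called higher in Mll3/4SI (ratios 2.31, interval 1.78 to 3.0, and 2.23, interval 1.71 to 2.91), where 0.871% of 12511 genes were called higher and 0.631% lower. Without the cell of most class II UMIs in each library, a step added after the data were seen, the log2 ratios were 0.38 for Cd74 and 0.87 for H2-Eb1, which ends both calls, and in Hashtag1 cells alone they were -1.17 and -0.99. Cd74 was called lower in Mll4SI (0.388, interval 0.264 to 0.561), where 1.23% were called lower and 1.48% higher. No member was called in Mll3SI, with 0.328% of genes higher and 0.36% lower. The median log2 ratio over the 7 genes was near 0 in each library (-0.23, -0.17 and -0.08 in the order Mll3SI, Mll4SI, Mll3/4SI). The peptide exchanger stayed near control: H2-DMa had 92.2, 88.2, 85.0 and 85.4 CPM and H2-DMb1 22.3, 18.9, 22.3 and 21.1 CPM. H2-Ab1 went its own way, at 29.4, 19.3, 30.2 and 22.5 CPM. Ciita gave 15, 11, 9 and 2 UMIs in all, too few to order the libraries.

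After each cell was thinned to 3000 UMIs, 1.74% of control HSC/MPP-like cells had a Cd74 UMI, 1.42% in Mll3SI and 0.908% in Mll4SI, and 2.37% in Mll3/4SI (before thinning 6.72%, 4.35%, 2.31% and 7.31%). In erythroid-like cells, which should lack class II, the thinned Cd74 share was 0% in control, Mll3SI and Mll4SI and 1.32% in Mll3/4SI, with upper 95% limits of 1.38% to 7.11%. Thinning left out 3 to 8 HSC/MPP-like cells a library and 9 to 15 erythroid-like ones; median depth before it was 17457 to 25053 and 11911 to 18449 UMIs. Without doublet removal the Mll3/4SI share was 0.885% and the Mll4SI share 0.361%. The Mll3/4SI share (interval 1.03% to 4.62%) cannot be separated from control (0.999% to 2.81%) at this depth. H2-Ab1 and H2-DMa were also seen in erythroid-like cells, at 17.5 to 19.9 and 36.4 to 48.3 CPM, where Cd74 was at 0 to 1.92 CPM.

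Within HSC/MPP-like cells, Cd74, H2-Aa and H2-Eb1 were seen mainly in 1 of 3 clusters. Cluster 11, led by Mecom, Angpt1, Meis1 and Hlf, known from the most immature stem cells, held 335 control, 332 Mll3SI, 238 Mll4SI and 131 Mll3/4SI cells. There Cd74 reached 17.2, 17.1, 8.50 and 46.3 CPM, H2-Aa 23.8, 23.9, 13.8 and 37.0 CPM, and H2-Eb1 16.8, 15.5, 13.8 and 43.5 CPM. In clusters 12 and 14, led by Aff3, Fut8, Ccl9 and Cd34, the same 3 genes stayed between 0 and 2.33 CPM in every library. H2-DMa differed far less, with 103 to 112 CPM in cluster 11 and 68.8 to 99.7 CPM in the other 2 clusters. H2-Ab1 had 31.1 to 42.0 CPM in cluster 11 and 14.8 to 27.1 CPM in clusters 12 and 14.

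**Figure D3:**
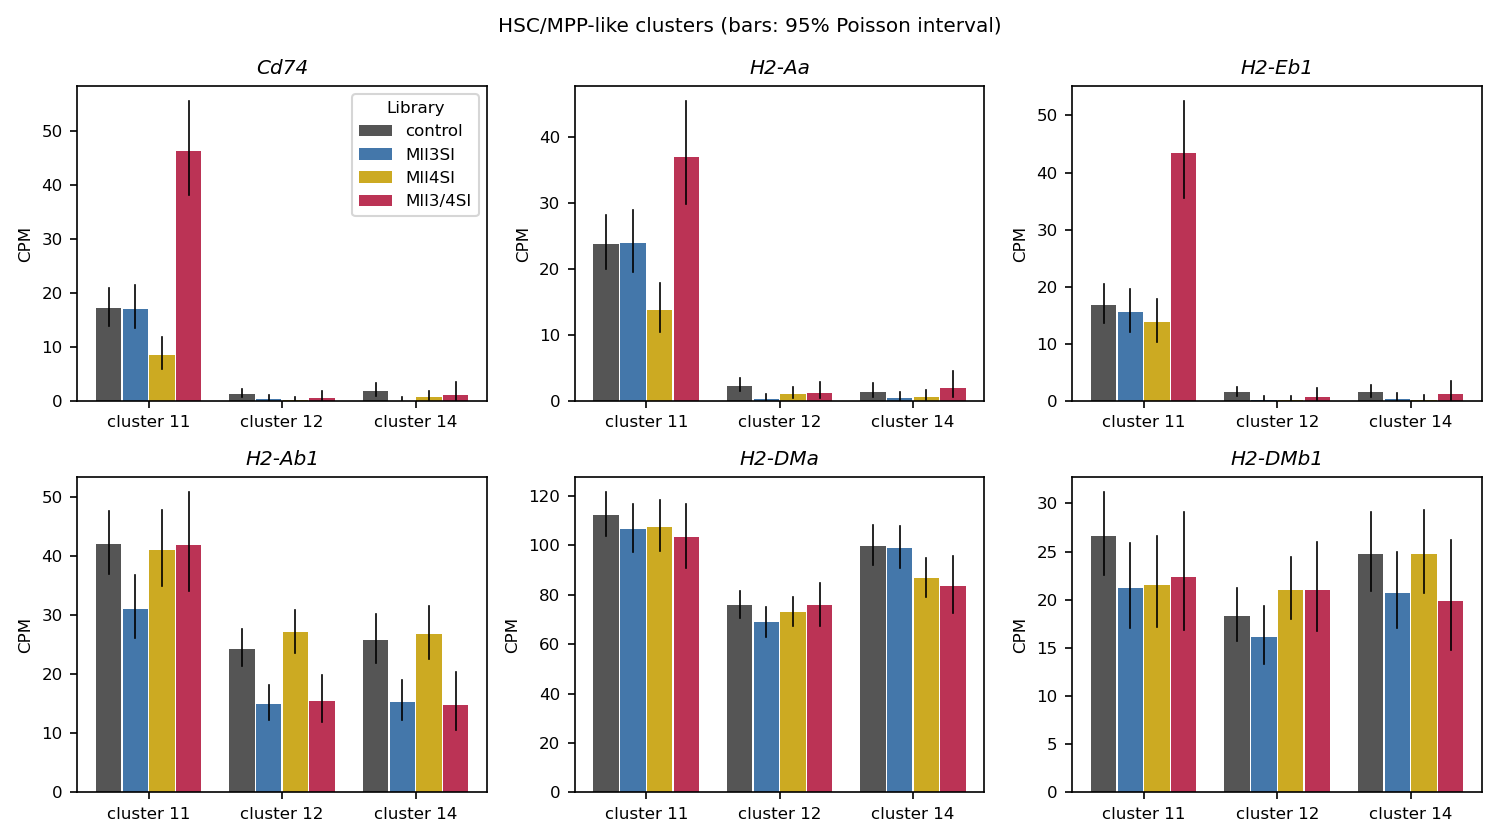
Level (CPM, bars from 0, with 95% Poisson intervals) of 6 genes in the 3 HSC/MPP-like clusters by library. Cd74, H2-Aa and H2-Eb1 are at 8.50 CPM or more in cluster 11, Mll3/4SI the highest, and at 2.33 CPM or less in clusters 12 and 14; H2-DMa is above 68 CPM in all 3.

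Within cluster 11, H2-Eb1 and Cd74 were seen more often in cells with an H2-Aa UMI than in those without. Of the 71 control cells with an H2-Aa UMI, 47.9% also had H2-Eb1, against 7.95% of the 264 without, and 35.2% had Cd74, against 7.95%. In Mll3/4SI the shares were 68.6% of 35 cells against 12.5% of 96 for H2-Eb1, and 51.4% against 2.08% for Cd74. Median depth was 17885 and 15566 UMIs in control and 18728 and 17664 in Mll3/4SI, with and without H2-Aa. For H2-Ab1 the shares lay closer together, at 70.4% with H2-Aa and 39.0% without in control, and 54.3% and 39.6% in Mll3/4SI. H2-DMa was as frequent with H2-Aa as without (85.9% and 81.1% in control, 77.1% and 83.3% in Mll3/4SI). The classical genes were thus seen together in some cells of the cluster, and H2-DMa in most.

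In cluster 11 Mll3/4SI was again the highest and Mll4SI the lowest for Cd74, H2-Aa and H2-Eb1, with Mll3SI close to control. Cd74 and H2-Eb1 were called higher in Mll3/4SI (ratios 2.69, interval 2.04 to 3.56, and 2.58, interval 1.94 to 3.43), where 1.79% of 12989 genes were called higher and 2.37% lower. No member was called in Mll3SI (0.978% higher, 0.816% lower) or Mll4SI (2.26% higher, 2.72% lower). H2-Aa was 1.55 times control (interval 1.18 to 2.04), and H2-Ab1 did not differ by more than counting error (0.996, interval 0.783 to 1.26). In Mll4SI Cd74 was at 0.495 (interval 0.325 to 0.737) and H2-Aa at 0.578 (interval 0.415 to 0.796) of control, short of the fold used for a call. Marker sums of other cell types differed too: lymphoid-primed markers summed to 686 CPM in control and 310 in Mll4SI, and basophil and mast cell markers to 102 and 319 CPM. Granulocyte markers summed to 3355 CPM in control (3903 with Hashtag1, 2846 with Hashtag2) and 12266 CPM in Mll4SI (3697 and 8675). Hashtag1 and Hashtag2 marked 113 and 114 of the 238 Mll4SI cells. The Mll4SI sum lies above both hashtag values, so the cells with both or no hashtag raise it. The part of these markers in the lower Mll4SI levels was not tested. Ciita had 14 UMIs in control, 9 in Mll3SI and 9 in Mll4SI, and 0 in Mll3/4SI, which allows up to 1.22 CPM there against 2.43 CPM in control; it was called lower only with the 0 taken as exact, and at that limit the fold is not reached. A single Mll3/4SI cell held 52 of the 114 Cd74 UMIs; without the cell of most class II UMIs in each library the log2 ratio dropped from 1.38 to 0.60 for Cd74 and from 1.32 to 1.16 for H2-Eb1, so the Cd74 call ends and the H2-Eb1 call stays.

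The higher Mll3/4SI level was carried by the cells of 1 hashtag. Among Mll3/4SI cells of cluster 11, the 74 with Hashtag1 had 5.82 CPM of Cd74 and the 55 with Hashtag2 had 102 CPM. H2-Eb1 was at 6.54 CPM with Hashtag1 and 92.1 CPM with Hashtag2. H2-Aa was at 12.4 and 71.0 CPM. The intervals of the 2 hashtags did not overlap for any of the 3. These intervals cover counting error only, and the share of all genes without overlap was not counted. The ratios of Hashtag2 to Hashtag1 were 17.5 for Cd74 (interval 8.56 to 41.6), 14.1 for H2-Eb1 (7.11 to 31.7), 5.74 for H2-Aa (3.36 to 10.4) and 1.78 for H2-Ab1 (1.18 to 2.71). For H2-DMa the ratio was 0.845 (interval 0.649 to 1.10).

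Against control cells of the same hashtag, the Mll3/4SI library thus stood on both sides. With Hashtag2, Cd74 was 5.28 times control (interval 3.8 to 7.39), H2-Eb1 5.22 times (3.71 to 7.43) and H2-Aa 2.90 times (2.07 to 4.05). With Hashtag1, Cd74 was at 0.367 of control (0.148 to 0.794), H2-Eb1 at 0.393 (0.168 to 0.819) and H2-Aa at 0.528 (0.289 to 0.919). Leaving out the highest cell for each gene, Hashtag2 cells still had 52.3 CPM of Cd74, 74.6 of H2-Eb1 and 65.2 of H2-Aa. The difference was seen over many cells: 27 of 55 Hashtag2 cells had an H2-Eb1 UMI and 8 of 74 Hashtag1 cells, at median depths of 18305 and 17031 UMIs, and after thinning 20.4% of 54 and 1.35% of 74.

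In control the hashtags were close, with 15.9 and 19.3 CPM of Cd74, 23.4 and 24.5 of H2-Aa, and 16.7 and 17.6 of H2-Eb1 (Hashtag1 and Hashtag2). Mll3SI had 23.4 and 11.3 CPM of Cd74 and 19.4 and 12.4 of H2-Eb1. Mll4SI had 8.96 and 9.58 CPM of Cd74, but 23.7 and 5.63 of H2-Eb1. Its H2-Eb1 level thus lay below control with Hashtag2 only, and above control with Hashtag1. Between hashtags of Mll3/4SI, 3 of the 6 members tested were called higher in Hashtag2 and none lower, where 5.0% of 12767 genes were called higher and 4.89% lower. In control no member was called, where 1.83% were higher and 2.68% lower.

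**Figure D4:**
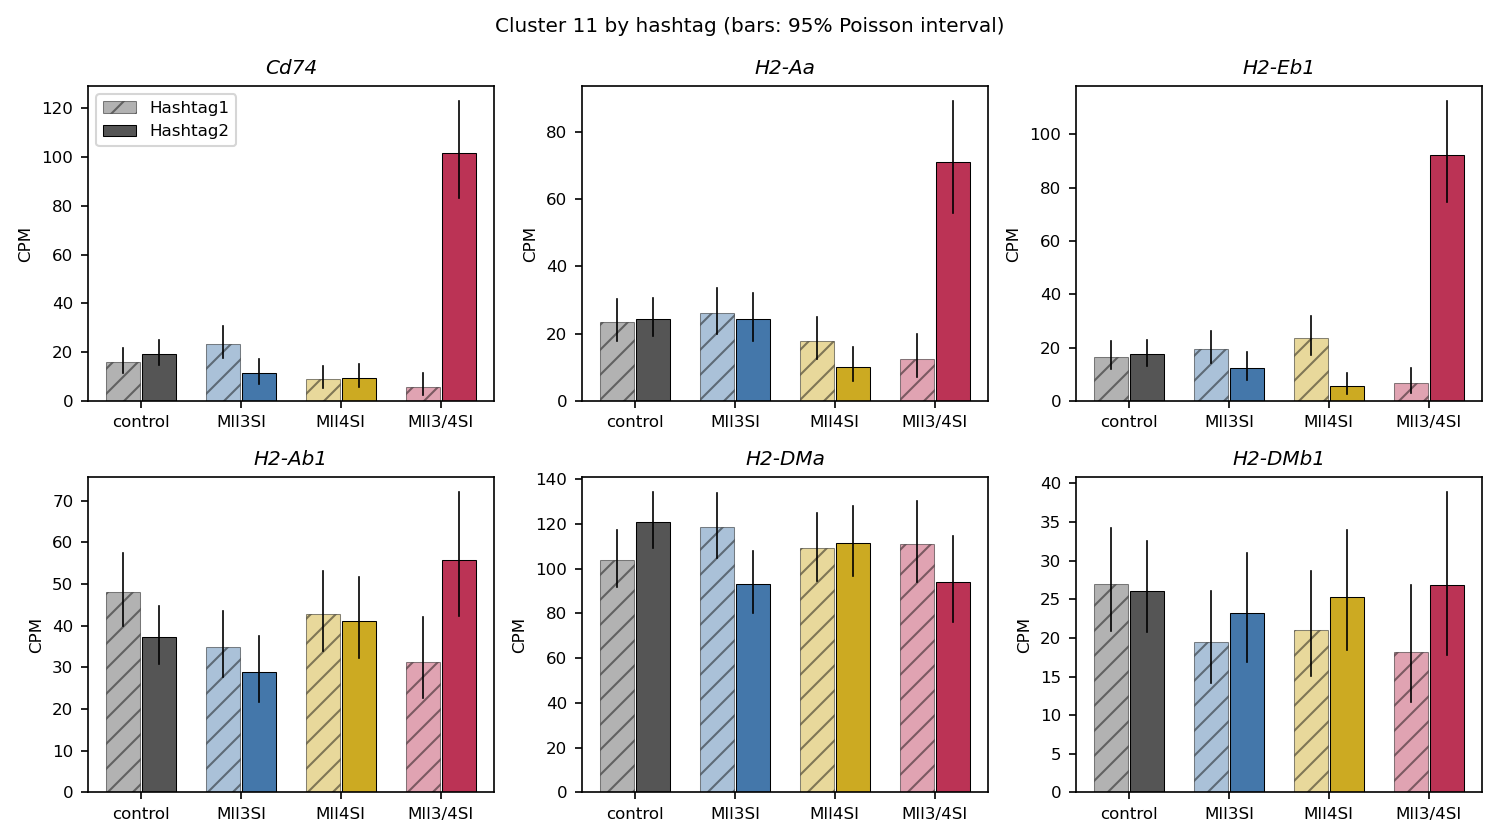
Level (CPM, bars from 0, with 95% Poisson intervals) in cluster 11 by library and hashtag (hatched and pale, Hashtag1; solid, Hashtag2), for 6 class II genes. In Mll3/4SI, Hashtag2 cells are far above Hashtag1 cells for Cd74, H2-Aa and H2-Eb1, while those of control differ little.

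H2-Aa was higher with Hashtag2 in other Mll3/4SI cells too. In cluster 17, which had 767 Mll3/4SI cells and 4 of Mll4SI, H2-Aa was at 1.11 CPM in 188 Hashtag1 cells and 12.7 CPM in 569 Hashtag2 cells, and H2-Eb1 at 0.889 and 13.8 CPM. In cluster 22 (Pf4 and Meis1), H2-Aa was at 4.04 CPM in 31 and 76.7 CPM in 11 Mll3/4SI cells, with no Cd74 UMI in either; 10 of the 21 H2-Aa UMIs of those 11 cells were in 1 cell. In erythroid-like cells of this library H2-Aa gave 0 UMIs in 44 Hashtag1 cells and 8 UMIs, 8.03 CPM, in 36 Hashtag2 cells. H2-DMa was at 52.4 and 48.3 CPM in cluster 17, 55.2 and 84.0 CPM in cluster 22, and gave 34 and 39 UMIs in erythroid-like cells.

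Of the inducers of class II, 15 of the 18 listed were tested in cluster 11. Between the hashtags of Mll3/4SI, Irf8, a transcription factor of dendritic cells and monocytes, was among those called higher in Hashtag2, at 45.1 and 126 CPM, and none was called lower; in control none was called either way. Irf1, an interferon-induced activator of Ciita, was at 48.0 and 63.3 CPM in Mll3/4SI, short of a call. Of 8 tested presentation partners 3 were called higher in Hashtag2 (H2-DMb2, Ctss and March1), with 2 and 7, 18 and 32, and 0 and 3 UMIs. Ctss encodes cathepsin S, which trims the invariant chain. Over all 12767 genes 5.0% were called higher and 4.89% lower. Partners were called between hashtags in the other libraries too. In control 1 of 6 was higher, in Mll4SI 2 of 7 were higher and 1 lower, and in Mll3SI 2 of 7 were lower. In Mll4SI 1 of 15 inducers was also called higher. Of 2 co-stimulation genes tested in Mll3/4SI none was called. Marker sums moved with this: dendritic markers summed to 646 and 1109 CPM (10 of 15 higher with Hashtag2, Batf3, Xcr1, Zbtb46, Cd209a and Ccl17 at 0), monocyte markers to 96.7 and 245 CPM (9 of 12 higher), and HSC/MPP markers to 4139 and 4687 CPM (9 of 15 higher). In control 10 of 15 dendritic markers were also higher with Hashtag2, with sums of 596 and 663 CPM, and 7 of 12 monocyte markers, with 108 and 143 CPM. Their part in the class II split was not tested.

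Compared by library alone, the pathway lists moved little in HSC/MPP-like cells: of 7 presentation partners, 15 inducers and 3 co-stimulation genes tested, none was called in any library against control. In cluster 11 of Mll4SI, 3 listed genes with enough UMIs to be named were lower: Ctss (15.1 to 4.00 CPM), Irf8 (54.2 to 21.8 CPM) and Ifngr2, a chain of the interferon gamma receptor (20.1 to 6.75 CPM). In all, 1 partner was called higher and 2 lower, no inducer higher and 2 lower, and 1 co-stimulation gene lower, of 8, 15 and 3 tested, beside the 2.26% of all genes called higher and 2.72% lower; others of these had too few UMIs to name.

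Split by stem and lymphoid genes, control HSC/MPP-like cells with a Mecom or Hlf UMI and a Flt3 UMI (435 cells) had 8.0 CPM of Cd74, those with Mecom or Hlf alone (292 cells) 3.92, those with Flt3 alone (99 cells) 4.05, and those with none (97 cells) 3.0 CPM. In Mll3/4SI the same 4 sets had 9.83, 5.91, 44.1 and 1.96 CPM, of 148, 98, 57 and 39 cells; the third set holds the single Cd74-rich cell. In Mll4SI they had 6.24, 0.615, 0.529 and 0.254 CPM, of 245, 278, 86 and 170 cells. Mll3SI had another order, with 4.23, 6.72, 1.08 and 0 CPM, of 357, 384, 106 and 73 cells, so that Mecom or Hlf alone was the highest set there. For H2-Aa the Mll3/4SI values were 13.96, 9.97, 11.9 and 2.94 CPM. Class II RNA was thus also seen in cells without a UMI of Flt3, a receptor of lymphoid-primed and dendritic progenitors; a missing UMI does not show that the gene was off.

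In granulocyte-like cells (3974 control, 4795 Mll3SI, 7474 Mll4SI and 4756 Mll3/4SI cells) only the exchanger and H2-Ab1 were above a mean of 1 CPM. H2-DMa stood at 11.6 CPM in control, 12.4 in Mll3SI and 8.23 in Mll4SI, and 22.3 in Mll3/4SI. H2-DMb1 stood at 6.26, 7.15, 5.05 and 15.3 CPM. Both chains were thus highest in Mll3/4SI and lowest in Mll4SI. H2-DMb1 was called higher in Mll3/4SI (ratio 2.45, interval 2.19 to 2.73), where 3.42% of 11507 genes were called higher and 1.09% lower; no member was called in Mll3SI, with 0.226% and 0.348%, or Mll4SI, with 1.14% and 1.68%. H2-DMa was 1.92 times control (interval 1.77 to 2.09), short of a call. Cd74, H2-Aa and H2-Eb1 were at 0.151 to 1.23 CPM, no more than in erythroid-like cells of at least 1 library.

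The libraries differed in the clusters that made up this class. Cluster 8, led by Mpo, Ly6e and Ms4a6c, held 1210 Mll3/4SI cells and 4 control, 3 Mll3SI and 11 Mll4SI cells, with 54.8 CPM of H2-DMa and 36.7 of H2-DMb1 in Mll3/4SI. In cluster 4, which all libraries share and which Elane leads, H2-DMa was at 33.7, 31.8, 37.6 and 34.6 CPM and H2-DMb1 at 19.7, 19.9, 24.1 and 17.9 CPM. In cluster 15, also shared, H2-DMa was at 28.8, 25.5, 21.6 and 23.8 CPM. Without cluster 8 the Mll3/4SI log2 ratio was -0.54 for H2-DMa and -0.12 for H2-DMb1. Of the 5 presentation partners tested in granulocyte-like cells of Mll3/4SI, Ctss was higher (0.541 to 3.66 CPM) and Ifi30, a lysosomal thiol reductase, lower (10.7 to 4.56 CPM), and of 15 inducers Irf8 was higher (7.79 to 54.9 CPM); in Mll4SI March1, a ligase that removes class II from the surface, was higher (20.4 to 53.2 CPM) and Ifi30 lower (10.7 to 2.73 CPM). Most Mll4SI cells of the class were in clusters with few control cells: clusters 2, 5, 7 and 16 held 2756, 1641, 1261 and 768 Mll4SI cells and 10, 3, 9 and 27 control cells. Clusters 13 and 23 held 955 and 448 Mll3/4SI cells and no control cell. The class values thus compare largely different clusters.

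**Figure D5:**
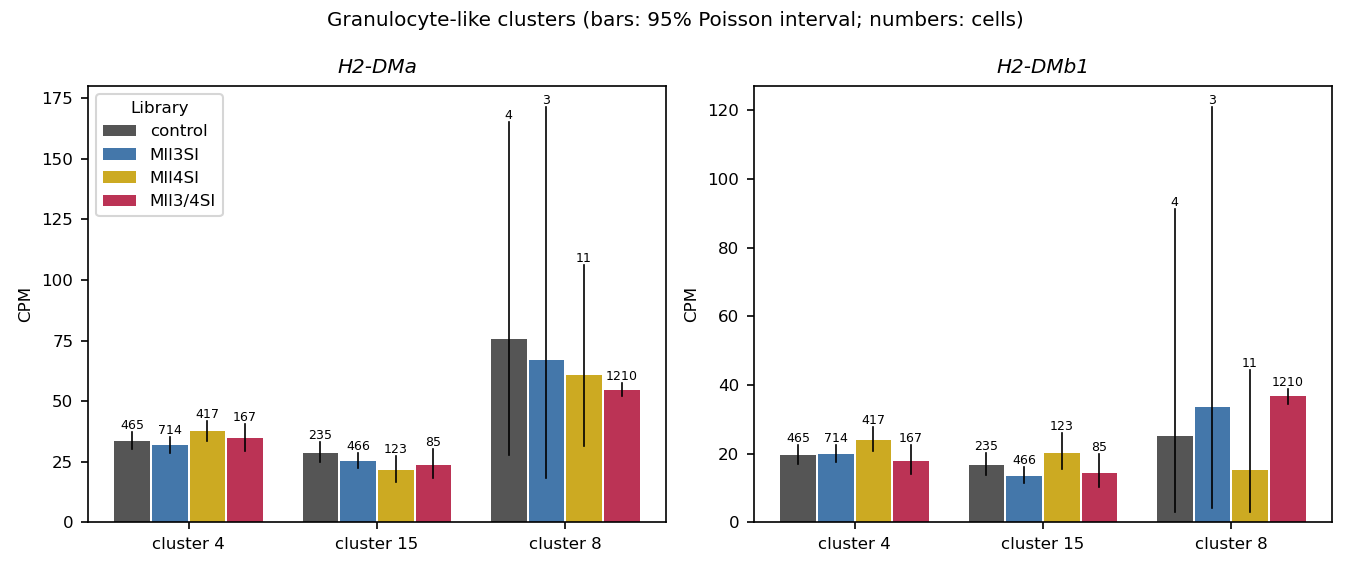
Level (CPM, bars from 0, with 95% Poisson intervals and the number of cells) of H2-DMa and H2-DMb1 in 3 granulocyte-like clusters by library. In the shared clusters 4 and 15 the libraries lie between 13.6 and 37.6 CPM, and cluster 8, with 1210 Mll3/4SI cells, reaches 54.8 CPM of H2-DMa there.

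Monocyte-like cells held the exchanger without the invariant chain. H2-DMa was at 79.5, 75.1, 70.7 and 67.9 CPM and H2-DMb1 at 33.6, 28.1, 37.1 and 27.9 CPM, while Cd74 was at 0.463, 0.0404, 0.636 and 0.291 CPM. H2-Ab1 was at 12.3, 5.70, 10.6 and 6.89 CPM, lowest in Mll3SI (ratio 0.465, interval 0.376 to 0.572). No member was called in this class, where 0.186%, 1.35% and 0.751% of 11856 genes were called higher and 0.253%, 0.675% and 0.472% lower in Mll3SI, Mll4SI and Mll3/4SI.

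B-lymphoid-like cells (73, 191, 42 and 37 cells) had 150, 5.24, 104 and 12.9 CPM of Cd74, and 119, 70.05, 84.6 and 59.7 CPM of H2-Ab1. Few cells carried the first: 7 control cells with at least 10 Cd74 UMIs held 176 of the class's 184, 2 Mll4SI cells held 61 of 69, 1 Mll3SI cell held 10 of 14, and Mll3/4SI had none. Of the 7 control cells, 5 had a UMI of Ms4a1, which mature B cells express, and none of the rest did; their median depth was 3793 UMIs against 17894. Outside these cells Cd74 gave 4 to 8 UMIs a library while H2-Ab1 was at 59.7 to 81.7 CPM. Of the members 3, 2 and 5 were called lower in Mll3SI, Mll4SI and Mll3/4SI, and 1 higher in Mll4SI (Ciita, 2 UMIs in control and 3 there), with 3.86%, 9.32% and 9.85% of 12181 genes called lower and 4.0%, 7.45% and 7.11% higher. In T/NK-like cells of Mll3/4SI, 4 of 47 cells held 104 of 119 Cd74 UMIs, with 12 to 40 each, 3 of them with Hashtag2; the other libraries had 0 to 6 UMIs in 11 to 26 cells.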

How the data were processed

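Per the submitters' processing notes, the authors used Cell Ranger 7.1.0 and build mm10; the deposited values are raw UMI counts per gene and barcode. Whether counting used strand is not given in the sources used here; Gm20513, Brd2 and Dexi overlap H2-Eb1, H2-DMa and Ciita on the other strand. Groups came from the sample titles. Cells with at least 500 genes, 1000 UMIs and at most 10% mitochondrial UMIs were kept, and the top 0.8% per 1000 cells by Scrublet score removed (409, 594, 1001 and 411). Joint clustering (scanpy 1.11.5, 2000 variable genes without the members, pathway lists and sex genes, 30 components, 15 neighbours, Leiden resolution 1) gave 32 clusters. A cluster took a name with at least 3 markers higher and a lead of 2, limits chosen after the clusters were seen; clusters 17, 22 and 29 are among the unnamed, and a cluster's leading genes are not results. Hashtags were called above 129 and 324 UMIs. Genes of a mean of at least 1 CPM were tested for the fold. Other pathway genes are named at a log2 ratio of 1 or -1 with at least 50 UMIs; those between hashtags were chosen after their values were seen. The members and lists were chosen with earlier results of these data known. Scripts were tested on simulated data. Alternatives were scaling, added CPM, filters, doublets, resolution, hashtag, thinning and left-out cells or clusters. One listed pathway gene is not reported here.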

Additional observations from a re-analysis of the deposited data

How the results depend on the processing

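No paired analysis was possible because each group has 1 library and the labels carry no shared replicate numbers. Using Hashtag1 cells alone turned the Mll3/4SI log2 ratios of Cd74 and H2-Eb1 to -1.17 and -0.99 in HSC/MPP-like cells and to -1.307 and -1.23 in cluster 11, and in all kept cells gave 0.17 (Cd74) in Mll3/4SI and 0.17 (Cd74), 0.17 (H2-Aa) and 0.36 (H2-Eb1) in Mll3SI. The median over the 7 genes was then -0.048, -0.90 and 0.043 in all kept cells of Mll3SI, Mll4SI and Mll3/4SI, and -0.79 and -0.14 in HSC/MPP-like and granulocyte-like cells of Mll3/4SI. With Hashtag2 cells alone it was -1.52, -2.065 and -1.309 in all kept cells and 0.36 in HSC/MPP-like cells of Mll3/4SI. Without cluster 29 the Cd74 ratio of Mll3/4SI in all kept cells was 0.012 and the medians were -0.44, -0.56 and 0.039; without cluster 8 the H2-DMb1 ratio in granulocyte-like cells was -0.12. These settings use fewer cells. Leaving out cluster 29, cluster 8 or the cell of most class II UMIs, and counting in cluster 17, were chosen after seeing the data.

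The Mll3/4SI median in HSC/MPP-like cells was 0.30 at Leiden resolution 2 and 0.29 with cluster 17 counted in. Adding 10 CPM gave medians of -0.66, -1.06 and -0.43 in all kept cells and -0.10 in granulocyte-like cells of Mll4SI; averaging scaled UMIs over cells gave -2.101 in Mll4SI and -0.81 in Mll3/4SI over all kept cells and -0.63 in HSC/MPP-like cells of Mll4SI; median-of-ratios scaling gave -1.40 in all kept cells of Mll4SI. The share of HSC/MPP-like cells with a Cd74 UMI was 6.72%, 4.35%, 2.31% and 7.31% without thinning, 0.433%, 0.435% and 0.128% in control, Mll3SI and Mll4SI at 1000 UMIs, and 0.361% in Mll4SI and 0.885% in Mll3/4SI without doublet removal. Genes called higher and lower in HSC/MPP-like cells numbered 5 and 10 (Mll3SI), 39 and 16 (Mll4SI) and 16 and 19 (Mll3/4SI) with 10 CPM added, and 12 and 12, 54 and 40, and 28 and 23 at a mean of at least 10 CPM. In granulocyte-like cells they numbered 3 and 5, 36 and 26, and 100 and 32 with 10 CPM added, and 8 and 18, 48 and 88, and 118 and 67 at a mean of at least 10 CPM; median-of-ratios scaling gave 127 lower in Mll4SI. The cause of these changes was not tested. Over all settings, 101 medians, counts and shares stayed close to their value and 56 moved further; of the single-gene values 702 stayed within counting error, 212 moved further, some of them across 0, and 10 that had been called changed sign. Low counts limit Ciita most, with 2 to 15 UMIs in HSC/MPP-like cells of a library.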

Other observations

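Over 22 class-by-library groups of at least 50 cells, the 10 genes whose log2(CPM + 1) was most like the mean of the standardised members were 1700008J07Rik, 1500009L16Rik, Plcl1, Pde7a, Acsf2, Hivep2, D630045J12Rik, Cxxc5, Dusp2 and 4933412E12Rik, with Pearson correlations of 0.893 to 0.921 among 12660 genes. The members themselves reached 0.878 (H2-Aa), 0.867 (H2-Eb1), 0.860 (H2-Ab1), 0.854 (Cd74) and 0.757 (Ciita), but only 0.473 (H2-DMa) and 0.210 (H2-DMb1). These groups leave out cluster 29. Over the 32 clusters with libraries pooled, a measure added after the data were seen, the leading genes were Pmepa1 (0.940), Fgfr1 (0.913), Tbc1d9 (0.905), Ckb (0.898) and Sdc3 (0.897), with Cd86, a co-stimulatory ligand of antigen-presenting cells, at 0.894. The groups share libraries and depth, so the correlations are descriptions.

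In cluster 29 the co-stimulation genes differed between libraries beside the members. Cd86 was at 139 CPM in control, 67.8 in Mll3SI and 14.3 in Mll4SI, but at 156 in Mll3/4SI, where it was not called. Of 6 co-stimulation genes tested 3 were called lower in Mll3SI, 2 lower in Mll4SI and 3 higher in Mll3/4SI. Except for Cd86, each gene called had 13 UMIs or fewer in control and 9 or fewer in the other library. Cd83, which keeps class II on the surface, was at 44.95 CPM in control and 137 in Mll3/4SI. H2-Ob, a chain of the H2-O brake on the exchanger, was at 104 CPM in control and 35.7 in Mll4SI. With 15 to 38 cells a library, 13.4% to 15.5% of all genes were called higher and 13.5% to 17.6% lower there.

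The share of HSC/MPP-like cells also differed between the hashtags of Mll3/4SI, at 228 of 2915 Hashtag1 cells (7.82%, exact Clopper-Pearson interval 6.87% to 8.86%) and 107 of 3648 Hashtag2 cells (2.93%, interval 2.41% to 3.53%). In control the shares were 13.1% and 14.3%. These intervals cover counting error only. Other shares differed between hashtags too. In Mll3/4SI monocyte-like cells were 6.93% and 3.02%, and cluster 17 was 6.45% and 15.6%. In control erythroid-like cells were 5.01% and 3.09%.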
